A study of Mus musculus with 27 samples.

Results

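Expression of 7 genes for enzymes that remove aldehydes and other reactive carbonyl compounds was followed in mouse liver across 9 diets. They were the aldehyde dehydrogenases Aldh1a1, Aldh1a7 and Aldh3a2, the aldo-keto reductases Akr1c19 and Akr1b7, and the carbonyl reductases Cbr1 and Cbr3. The 7 were chosen by their known roles and by the log2 intensities of these same arrays, since earlier results on the diets were in view, and each was read from the probes that the platform annotation gives to that gene alone. Of the 7, 6 had such a probe, 1 each, among 18194 gene symbols, and 5 passed the detection level on 1 diet or more, as did 6478 genes in all. The detection level is a mean log2 intensity above log2(100), which is 6.64. Akr1b7 had no probe that lists it alone and was not analysed here. Liver RNA of 27 male C57BL/6 mice was hybridised to Affymetrix whole-genome mouse arrays, with 1 array per mouse and 3 mice per diet. The mice were 10 weeks old when purchased and were fed their diet for 3 weeks. The 8 diets compared with control were lab chow (a natural ingredient diet), high fructose (60% fructose), high fat, Western (42% of calories from fat, with sucrose), atherogenic (fat, sucrose, cholesterol and cholic acid), EFA-deficient (lacking essential fatty acids), low n-3 (7% sunflower oil, poor in n-3 fatty acids) and diet restriction (75% of the amount eaten ad libitum), and the control was the AIN-93 purified diet. The low n-3 arrays carry a DHA supplement in their title and diet label, and only their description names the low n-3 diet, which was followed here. Diet-restricted mice received the chow, so their values against AIN-93 include any effect of that food. All 8 comparisons share the same 3 AIN-93 arrays.

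Aldehydes arise in liver from lipid peroxidation, from the breakdown of fatty alcohols, amines and sugars, and from ethanol. Aldehyde dehydrogenases oxidise them to carboxylic acids with NAD or NADP, while aldo-keto reductases and carbonyl reductases reduce the carbonyl group to an alcohol with NADPH. In rodent liver several of these genes are known to respond to nuclear receptors that sense foreign compounds (CAR and PXR) or fatty acids (PPAR-alpha), and to Nrf2, a factor that responds to oxidants and electrophiles. In the RefSeq annotation of GRCm38.p6, Aldh1a1 (chr19:20492583-20643463) and Aldh1a7 (chr19:20692953-20727556) are neighbours on chromosome 19, and Cbr1 (chr16:93607837-93610349) and Cbr3 (chr16:93683219-93690991) on chromosome 16. Aldh3a2 lies at chr11:61223417-61267528, and Akr1c19 at chr13:4233503-4248361.

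The neighbours Aldh1a1 and Aldh1a7 are close copies, and 1 stretch of their start regions is shown as an example of that likeness. Immediately upstream of the second annotated start of Aldh1a1 (chr19:20601858-20601967, plus strand) and of the start of Aldh1a7 (chr19:20727557-20727666, minus strand), 104 of 110 bases are identical and 6 differ. At the first annotated start of Aldh1a1 (chr19:20492473-20492582), the same comparison gave 32 identical bases of 110 and a longest run of 8. The capitals mark the longest unbroken identical run, 65 bases. Both are given 5′ to 3′ on the strand of the gene, from RefSeq GRCm38.p6.
Aldh1a1: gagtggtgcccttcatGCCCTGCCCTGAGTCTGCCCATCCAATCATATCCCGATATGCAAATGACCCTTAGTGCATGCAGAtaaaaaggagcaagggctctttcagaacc
Aldh1a7: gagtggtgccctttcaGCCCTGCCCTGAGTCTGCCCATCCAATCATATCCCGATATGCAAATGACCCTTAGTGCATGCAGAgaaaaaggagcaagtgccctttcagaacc
These bases lie upstream of the starts compared, though the Aldh1a1 stretch is inside the gene span given above, which begins at the first start. Probe sequences were not compared here, and how far the Aldh1a1 and Aldh1a7 probes read each other's transcripts was not tested. Upstream windows of 250 bases were found for all 7 genes, 8 windows in all with both Aldh1a1 starts, and were searched on both strands for 3 motifs. The Aldh3a2 window (chr11:61267187-61267436) and the second Aldh1a1 window lay inside the gene spans given above. That of Akr1c19 (chr13:4233490-4233739) lay mostly inside its span. For these windows, little or no sequence upstream of the span was searched. The core of the antioxidant response element, TGACNNNGC, matched in none of the 8 windows and in 10.2% of 32851 RefSeq windows of that length. The direct repeats DR1 and DR4, bound by nuclear receptors and searched in their ideal form, also matched in none of the 8, and in 0.0335% and 0.0152% of all windows.

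Across the 8 diets, the 5 detected genes gave 40 comparisons with AIN-93, of which limma called 11 higher and 0 lower (15 higher and 0 lower at an unadjusted p under 0.05). Over all 6478 genes, 4.93% of such comparisons were called higher and 4.73% lower. A call is an adjusted p under 0.05 in limma, a linear model of log2 intensity fitted to all genes, and differences below are on the log2 scale, each diet minus AIN-93 unless another diet is named, with percent of control as the same difference on the linear scale. The 7 genes were listed with their responses known, so a call on one of them, in limma or in any other test, says only on which side of the threshold its value fell and is no evidence for it, and no p is given for them. The 5 differed in how widely their diet means spread: 0.63 on the log2 scale (1.54-fold) for Aldh1a7 and 0.82 (1.76-fold) for Aldh1a1, against 2.30 (4.92-fold) for Cbr1, 2.31 (4.96-fold) for Aldh3a2 and 2.65 (6.29-fold) for Akr1c19, where the median detected gene had a range of 0.67. The high values fell on different diets. Aldh3a2 was highest on the Western and high fat diets, Akr1c19 and Cbr1 under diet restriction, and Aldh1a1 and Aldh1a7 on high fat and lab chow. In whole liver, a change in the share of a cell type and a change in RNA per cell cannot be told apart. All 9 hepatocyte markers on the array passed the detection level on 1 diet or more, with a summed linear intensity of 273000 to 329000 over the 27 arrays. Under diet restriction limma called 2 of the 9 higher and 1 lower, beside 13.5% and 16% of all genes. It called 1 higher on high fat (6% of all genes) and 1 on Western (4.31%), and 1 lower on the EFA-deficient diet (2.47%). Markers of cholangiocytes (0 of 5) and of T and NK cells (0 of 9) did not reach the detection level in the mean of any diet. Markers of other liver cells had lower medians on some of the diets where some of the 5 genes were high. Under diet restriction, where limma called 16% of all genes lower, it called 1 of 5 detected stellate cell markers lower. At an unadjusted p under 0.05, 4 were lower (median difference -0.96, summed intensity 189 to 230 against 293 to 322 on AIN-93). Limma called 1 of 10 Kupffer cell markers lower (9 unadjusted, median -0.98). The Kupffer sums overlapped, at 1330 to 3640 against 3340 to 4490 on AIN-93. On lab chow, where 2.19% of all genes were called lower, limma called 2 of 8 markers of sinusoidal endothelium lower (5 unadjusted, median -0.53, sum 875 to 990 against 1130 to 1310). It also called 1 of 10 Kupffer cell markers lower (2 unadjusted, median -0.70, sum 1900 to 2490 against 3340 to 4490). On Western, where 4.48% of all genes were called lower, limma called 0 of 10 Kupffer cell markers lower. At an unadjusted p under 0.05, 7 were lower (median -0.86, sum 1670 to 2680 against 3340 to 4490). On the atherogenic diet (5.88% of all genes lower), 1 of 8 endothelial markers was called lower (4 unadjusted, median -0.57). The endothelial sums overlapped, at 732 to 1310 against 1130 to 1310. The part of these cells in the values of the 5 genes was not tested.

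**Figure D1:**
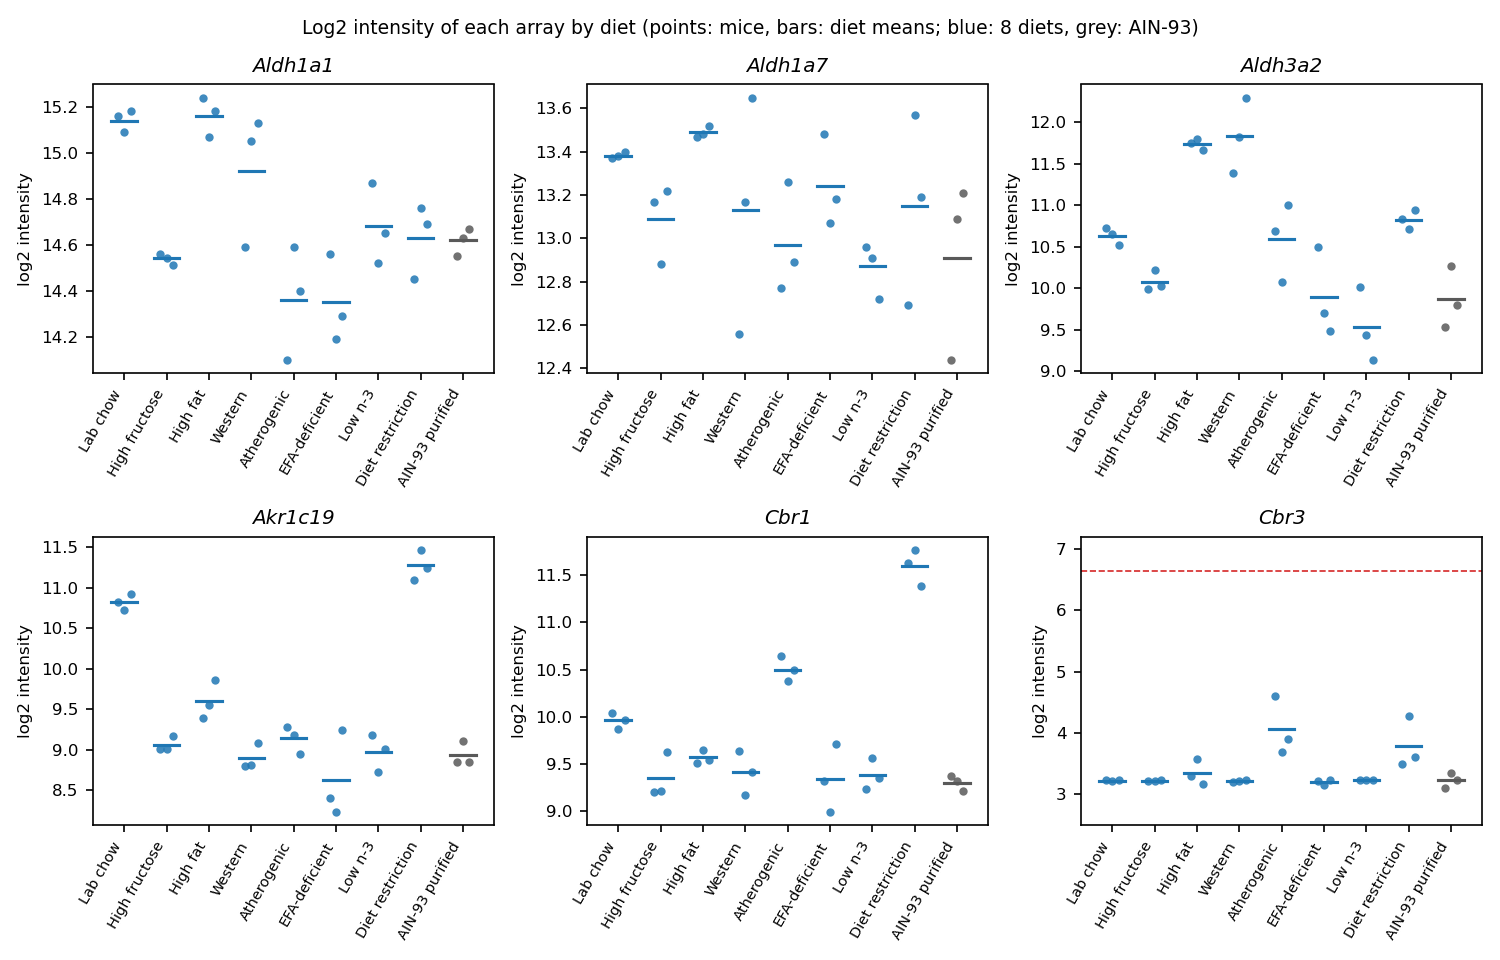
Log2 intensity (vertical axis) of the 6 genes with a probe of their own, in every array, by diet (horizontal axis, AIN-93 last and in grey). Points are mice, bars are diet means (n = 3), and the dashed line in the Cbr3 panel is the detection level of 6.64, which lies below the range of the other 5 panels. Akr1c19 and Cbr1 peaked under diet restriction and Aldh3a2 on the Western and high fat diets, and Cbr3 stayed below the line on all 27 arrays.

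Aldh3a2 encodes the fatty aldehyde dehydrogenase, which oxidises long-chain aliphatic aldehydes and is lost in Sjögren-Larsson syndrome in humans. Its log2 intensity was 11.39, 11.83 and 12.30 on the Western diet, 11.75, 11.80 and 11.67 on the high fat diet, and 9.53, 10.27 and 9.80 on AIN-93. All 6 Western and high fat arrays lay above every AIN-93 array, with gaps of 1.12 and 1.40, and above every array of the other diets. The diet means were 11.84 ± 0.46 for Western, 11.74 ± 0.07 for high fat and 9.87 ± 0.37 for AIN-93 (SD, n = 3), so that the Western level was 393% of control (difference 1.97 ± 0.27, SE) and the high fat level 366% (1.87 ± 0.27). The Western and high fat arrays overlapped each other. A middle tier followed, of diet-restricted mice at 10.83, 10.71 and 10.94, lab chow mice at 10.73, 10.65 and 10.52, and atherogenic mice at 10.69, 10.08 and 11.01. The first 2 of these diets did not overlap AIN-93, at 194% and 170% of control, whereas the atherogenic arrays did overlap it (165%). Of this tier, only diet restriction was called against AIN-93, and that call was lost without the filter on low signal, without AIN-93 replicate 1 or 3, or without diet restriction replicate 1 or 3 (differences of 0.79 to 1.16 over all alternatives). The remaining 3 diets overlapped AIN-93: high fructose read 9.99, 10.22 and 10.03, EFA-deficient 10.50, 9.70 and 9.48, and low n-3 10.02, 9.44 and 9.14. Low n-3 had the lowest mean, with a difference of -0.34 ± 0.27.

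Akr1c19 encodes an aldo-keto reductase of the 1C subfamily, whose members act on hydroxysteroids and on a range of foreign carbonyl compounds. Diet-restricted mice read 11.10, 11.47 and 11.25 and lab chow mice 10.82, 10.72 and 10.92, against 8.85, 9.10 and 8.85 in AIN-93 mice. The 6 arrays of mice that ate chow, restricted or not, lay above all other arrays. Diet restriction stood at 508% of AIN-93 (difference 2.34 ± 0.19) and lab chow at 370% (1.89 ± 0.19). High fat arrays came next, at 9.39, 9.55 and 9.86, which was 159% of control (0.67 ± 0.19) with no overlap with the AIN-93 arrays. That high fat call was lost without the filter on low signal, with only the 2 diets in the fit, without AIN-93 replicate 1 or 3, and without high fat replicate 2 or 3 (differences of 0.54 to 0.77). The other 5 diets overlapped AIN-93: atherogenic arrays read 9.28, 9.18 and 8.95, high fructose 9.01, 9.01 and 9.17, low n-3 9.18, 8.72 and 9.01, Western 8.80, 8.81 and 9.08, and EFA-deficient 8.40, 8.23 and 9.24. On the EFA-deficient diet 2 arrays were below every other array of this gene and the other was above all AIN-93 arrays, which gave the widest spread of any diet. Without that array the EFA-deficient difference was -0.62 and was called lower, against -0.31 with it.

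Cbr1, a cytosolic carbonyl reductase, reduces quinones, prostaglandins, lipid aldehydes and the ketone of anthracycline drugs. It was high on 3 diets that were apart from each other and from all the rest: diet restriction at 11.63, 11.77 and 11.39, the atherogenic diet at 10.64, 10.38 and 10.49, and lab chow at 10.04, 9.87 and 9.96, against 9.37, 9.32 and 9.21 on AIN-93. No arrays of these 4 diets overlapped. The level was 492% of control under diet restriction (difference 2.30 ± 0.16), 230% on the atherogenic diet (1.20 ± 0.16) and 158% on lab chow (0.66 ± 0.16). On the high fat diet the arrays read 9.51, 9.65 and 9.54, also above all AIN-93 arrays, but the difference of 0.27 ± 0.16 (120% of control) was not called. Arrays of the Western (9.64, 9.17 and 9.41), low n-3 (9.23, 9.56 and 9.35), high fructose (9.20, 9.21 and 9.63) and EFA-deficient (9.32, 8.99 and 9.71) diets overlapped AIN-93, with differences of 0.04 to 0.11. Markers of Kupffer cells, the resident macrophages of liver, were also high on the atherogenic diet: of 13 listed genes 10 were detected, their summed linear intensity was 8730 to 15700 on atherogenic arrays against 3340 to 4490 on AIN-93 arrays, and limma called 5 of the 10 higher and 0 lower (10 higher and 0 lower at an unadjusted p under 0.05). The defining marker Clec4f averaged 9.61 ± 0.31 on the atherogenic diet and 8.47 ± 0.36 on AIN-93 (SD, n = 3), and Marco, Cd68 and Timd4 were below the detection level. The part of these cells in the Cbr1 values was not tested. Under diet restriction, where Cbr1 was highest, the Kupffer sum was 1330 to 3640. There 1 of the 10 markers was called lower, beside 16% of all genes, and 9 were lower at an unadjusted p under 0.05.

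Aldh1a1 and Aldh1a7 encode cytosolic enzymes of the retinaldehyde dehydrogenase family. Aldh1a1 oxidises retinaldehyde to retinoic acid and also accepts aldehydes from lipid peroxidation, while Aldh1a7 is a rodent relative. Aldh1a1 read 15.24, 15.07 and 15.18 on high fat and 15.16, 15.09 and 15.18 on lab chow, against 14.55, 14.63 and 14.67 on AIN-93. The 6 arrays lay at least 0.40 above the highest AIN-93 array, at 146% (difference 0.55 ± 0.14) and 144% of control (0.53 ± 0.14). Both were called, and the lab chow call was lost without AIN-93 replicate 1. The Western arrays were split, with 1 at 14.59, among the AIN-93 values, and the others at 15.05 and 15.13, and their difference of 0.30 was called only without that first array. Lower means were found on the atherogenic diet (14.10, 14.59 and 14.40) and the EFA-deficient diet (14.56, 14.19 and 14.29), both of which overlapped AIN-93, with differences of -0.25 and -0.27. Diet-restricted mice (14.45, 14.76 and 14.69), low n-3 mice (14.87, 14.52 and 14.65) and high fructose mice (14.56, 14.54 and 14.51) also overlapped AIN-93. In order of level, each diet overlapped the next for Aldh1a1 from the highest, high fat, to the lowest, EFA-deficient.

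Aldh1a7 had the same 2 diets on top. High fat arrays read 13.47, 13.48 and 13.52 and lab chow arrays 13.37, 13.38 and 13.40, against 12.44, 13.09 and 13.21 on AIN-93. These 2 diets were above all AIN-93 arrays and tight, but AIN-93 itself was wide, and the differences of 0.58 ± 0.23 and 0.47 ± 0.23 were not called. The widest diet was Western, at 12.56, 13.17 and 13.65, and its first array was low for Aldh1a1 as well. No diet was called for Aldh1a7, and the other 6 diets all overlapped AIN-93 with differences of -0.05 to 0.33. The first AIN-93 array was the lowest of the 27 for Aldh1a7, and without it the high fat difference was 0.34.

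Cbr3, a close relative of Cbr1, lay below the detection level on every array, so no fold is given. Its arrays read 4.60, 3.69 and 3.90 on the atherogenic diet and 3.50, 4.28 and 3.60 under diet restriction, against 3.11, 3.35 and 3.23 on AIN-93. The 2 highest means of this gene were thus on the diets where Cbr1 was also highest, but at intensities at which amounts cannot be compared. High fat arrays read 3.29, 3.58 and 3.17, and all arrays of the other 5 diets lay between 3.15 and 3.23.

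Set out by diet, limma called 3 of the 5 genes higher on lab chow (Aldh1a1, Akr1c19 and Cbr1), where 2.02% of all genes were called higher and 2.19% lower. It called 3 on high fat (Aldh1a1, Aldh3a2 and Akr1c19), beside 6% higher and 3.33% lower of all genes, and 3 under diet restriction (Aldh3a2, Akr1c19 and Cbr1), beside 13.5% and 16%. On Western it called 1 (Aldh3a2), beside 4.31% and 4.48%, and on the atherogenic diet 1 (Cbr1), beside 9.03% and 5.88%. On high fructose (1.17% of all genes higher and 2.73% lower), EFA-deficient (3.04% and 2.47%) and low n-3 diets (0.34% and 0.726%) limma called 0 in either direction, and 0 passed at an unadjusted p under 0.05 or in Dunnett's test on each gene. Every array lay above every AIN-93 array for 5 of the 5 genes on lab chow (8.97% of all genes) and on high fat (17.4%), for 3 under diet restriction (22.3%), and for 1 each on Western (11.5%) and atherogenic diets (20.6%). This held for 0 on high fructose (9.23%), EFA-deficient (10.7%) and low n-3 diets (5.85%). Dunnett's test called the same genes as limma on each of the 5 other diets. The median difference of the 5 genes was 0.96 under diet restriction, 0.66 on lab chow and 0.58 on high fat, beside medians over all genes of -0.03, -0.05 and -0.02. It was 0.21 on both Western and atherogenic diets, beside -0.03 and 0.03, and 0.13 or less on the other 3. No pair of the 5 diets with calls had the same set of called genes.

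**Figure D2:**
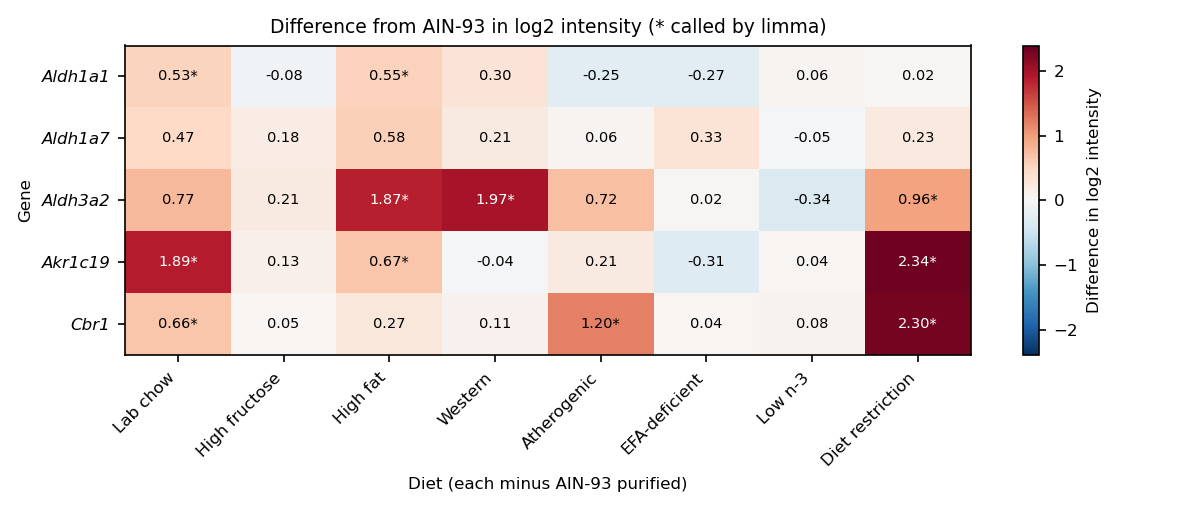
Difference in log2 intensity of the 5 detected genes (rows) on each of 8 diets (columns) from AIN-93, with the value in each cell, colour on a scale centred at 0 and an asterisk where limma made a call. The 11 asterisks are all on positive differences and fall on lab chow, high fat, Western, atherogenic and diet restriction columns.

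Diet restriction was next set against lab chow, which holds the food constant and differs in the amount eaten. Limma called 1 gene higher, Cbr1, and 1 lower, Aldh1a1, beside 19.2% and 17.6% of all genes. Arrays did not overlap for 2 genes that were higher (25.3% of all genes) and 1 that was lower (22.7%). Cbr1 in diet-restricted mice was 312% of its level in chow-fed mice (difference 1.64 ± 0.16), with a gap of 1.35 between the groups. Aldh1a1 was 70.2% (difference -0.51 ± 0.14), again with no overlap between the arrays. Akr1c19 read 11.10, 11.47 and 11.25 under restriction and 10.82, 10.72 and 10.92 on chow, groups that did not overlap, but the difference of 0.46 ± 0.19 was called only with array weights or with only these 2 diets in the fit. Aldh3a2 differed by 0.19 ± 0.27 and Aldh1a7 by -0.23 ± 0.23, and both overlapped. Most of the Akr1c19 difference from AIN-93 was thus already present on unrestricted chow (1.89 of 2.34), whereas most of the Cbr1 difference was not (0.66 of 2.30).

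The atherogenic diet was set against the Western diet, which is also rich in fat and sucrose. The atherogenic diet differs from it by added cholic acid and by a much higher cholesterol content, and the effects of these cannot be told apart. Cbr1 was higher on the atherogenic diet (214% of Western, difference 1.10 ± 0.16), while Aldh3a2 (42.0%, -1.25 ± 0.27) and Aldh1a1 (67.9%, -0.56 ± 0.14) were lower, so that 1 was called higher beside 11.3% of all genes and 2 lower beside 6.5%. Arrays did not overlap for 1 gene that was higher (19.6% of all genes) and 1 that was lower (13.2%). The Aldh3a2 arrays did not overlap, at 10.69, 10.08 and 11.01 on the atherogenic diet and 11.39, 11.83 and 12.30 on the Western diet. The Aldh1a1 arrays did, since the highest atherogenic value and the lowest Western value were both 14.59. Both lower calls were lost with only these 2 diets in the fit, which left 1 call, and that of Aldh1a1 also without atherogenic replicate 1. The Kupffer sum was 8730 to 15700 on atherogenic arrays and 1670 to 2680 on Western arrays, limma called all 10 detected markers higher, and their part in these differences was not tested. Akr1c19 (0.24 ± 0.19) and Aldh1a7 (-0.15 ± 0.23) overlapped.

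**Figure D3:**
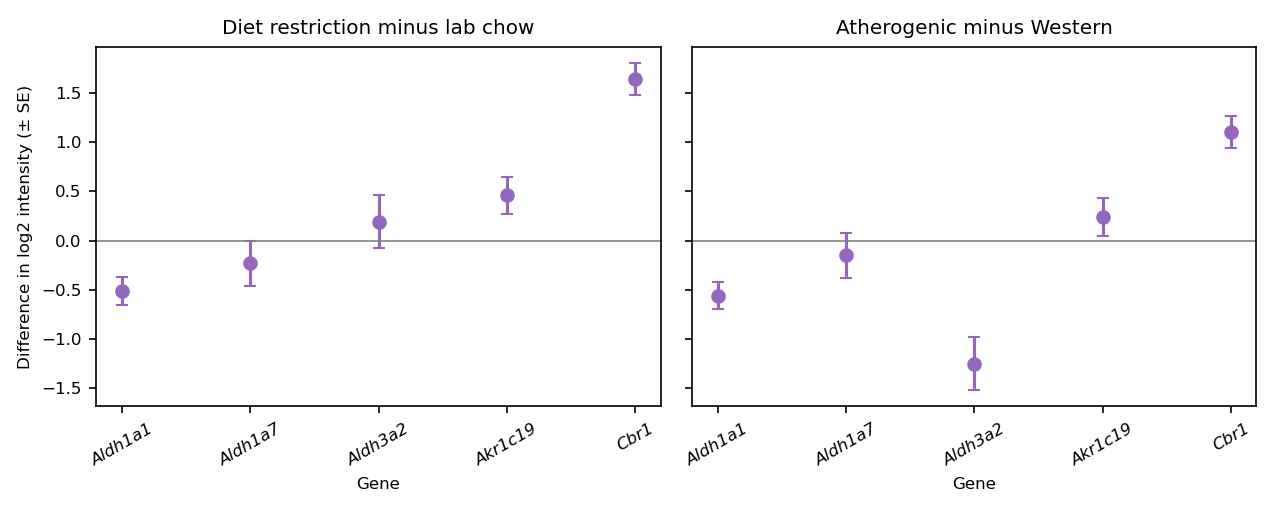
Difference in log2 intensity (vertical axis, with SE bars from limma) of the 5 detected genes (horizontal axis) between diet restriction and lab chow (left) and between the atherogenic and Western diets (right), n = 3 mice per diet. Cbr1 was higher in both, by 1.64 and 1.10, and Aldh1a1 lower in both, by -0.51 and -0.56, while Aldh3a2 was lower only in the right panel.

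Other genes of the same enzyme classes were taken from a list of 43, of which 41 had a probe of their own and 27 were detected (10 aldehyde dehydrogenases, 9 aldo-keto reductases and 8 carbonyl reductases of the short-chain family). Of their 216 comparisons with AIN-93, limma called 27 higher and 7 lower, on 19 of the 27 genes, beside 4.93% and 4.73% of comparisons over all genes. The 34 calls became 17 with only the arrays of the compared diets in the fit and 55 with array weights. The high fat diet had the most, 10 higher and 0 lower (0 lower also at an unadjusted p under 0.05), beside 6% and 3.33% of all genes. These 10 had smaller differences than Aldh3a2 on that diet, a gene listed with its response known. Dcxr, the dicarbonyl and L-xylulose reductase, averaged 12.09 ± 0.07 on high fat and 11.16 ± 0.05 on AIN-93 (SD, n = 3; difference 0.93, limma adjusted p = 0.00068). Dhrs4, a peroxisomal retinal and carbonyl reductase, differed by 0.89 on high fat (limma adjusted p = 8.3e-05) and by 0.88 on Western (limma adjusted p = 9.6e-05). The aldehyde reductase Akr1a1 (0.58, limma adjusted p = 0.00027) and Aldh7a1, which acts in lysine breakdown (0.63, limma adjusted p = 0.0017), also rose on high fat. The mitochondrial proline pathway enzyme Aldh4a1 was at least 1.33-fold higher on high fat (limma adjusted p = 0.0012), a bound set against the detection level, since all its AIN-93 arrays lay below it.

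On lab chow 3 of the 27 rose and 0 fell (2 lower at an unadjusted p under 0.05), beside 2.02% and 2.19% of all genes. The 3 were Akr1c13, higher by 0.51, Aldh7a1 by 0.50 and Akr1a1 by 0.43 on the log2 scale (limma adjusted p = 0.016, 0.011 and 0.0048). Akr1c13, of the same subfamily as Akr1c19, was thus higher on chow by less than the 1.89 of Akr1c19. Akr1c19 was listed with its response known, so it could be expected to have the larger difference. Under diet restriction 7 rose and 1 fell, beside 13.5% and 16% of all genes. Dcxr was higher by 0.94 and the bile acid synthesis enzyme Akr1d1 by 0.71 (limma adjusted p = 0.00059 and 6e-04), while Dhrs3, which reduces retinaldehyde to retinol, averaged 9.80 ± 0.25 in restricted mice and 10.78 ± 0.03 on AIN-93 (SD, n = 3; difference -0.97, limma adjusted p = 2.5e-05). On the atherogenic diet Dhrs4 rose and Akr1c20 (-0.60), Akr1d1 (-0.49) and Aldh9a1 (-0.33) fell, beside 9.03% of all genes higher and 5.88% lower. On high fructose Cbr4 (-0.68), Akr1c20 (-0.54) and Akr1c6 (-0.29) fell with 0 higher (1 at an unadjusted p under 0.05), beside 1.17% higher and 2.73% lower. Western, EFA-deficient and low n-3 diets had 4, 1 and 1 called higher and 0 lower (2, 2 and 1 lower at an unadjusted p under 0.05). Of all genes, 4.31%, 3.04% and 0.34% were called higher on these diets and 4.48%, 2.47% and 0.726% lower. Against the Western diet, the atherogenic diet had 1 of the 27 higher and 8 lower, beside 11.3% and 6.5% of all genes. Akr1d1 and Dcxr were among the lower ones. Aldh1b1, at 1.05 the largest positive difference of the 27 under restriction, was not called.

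**Figure D4:**
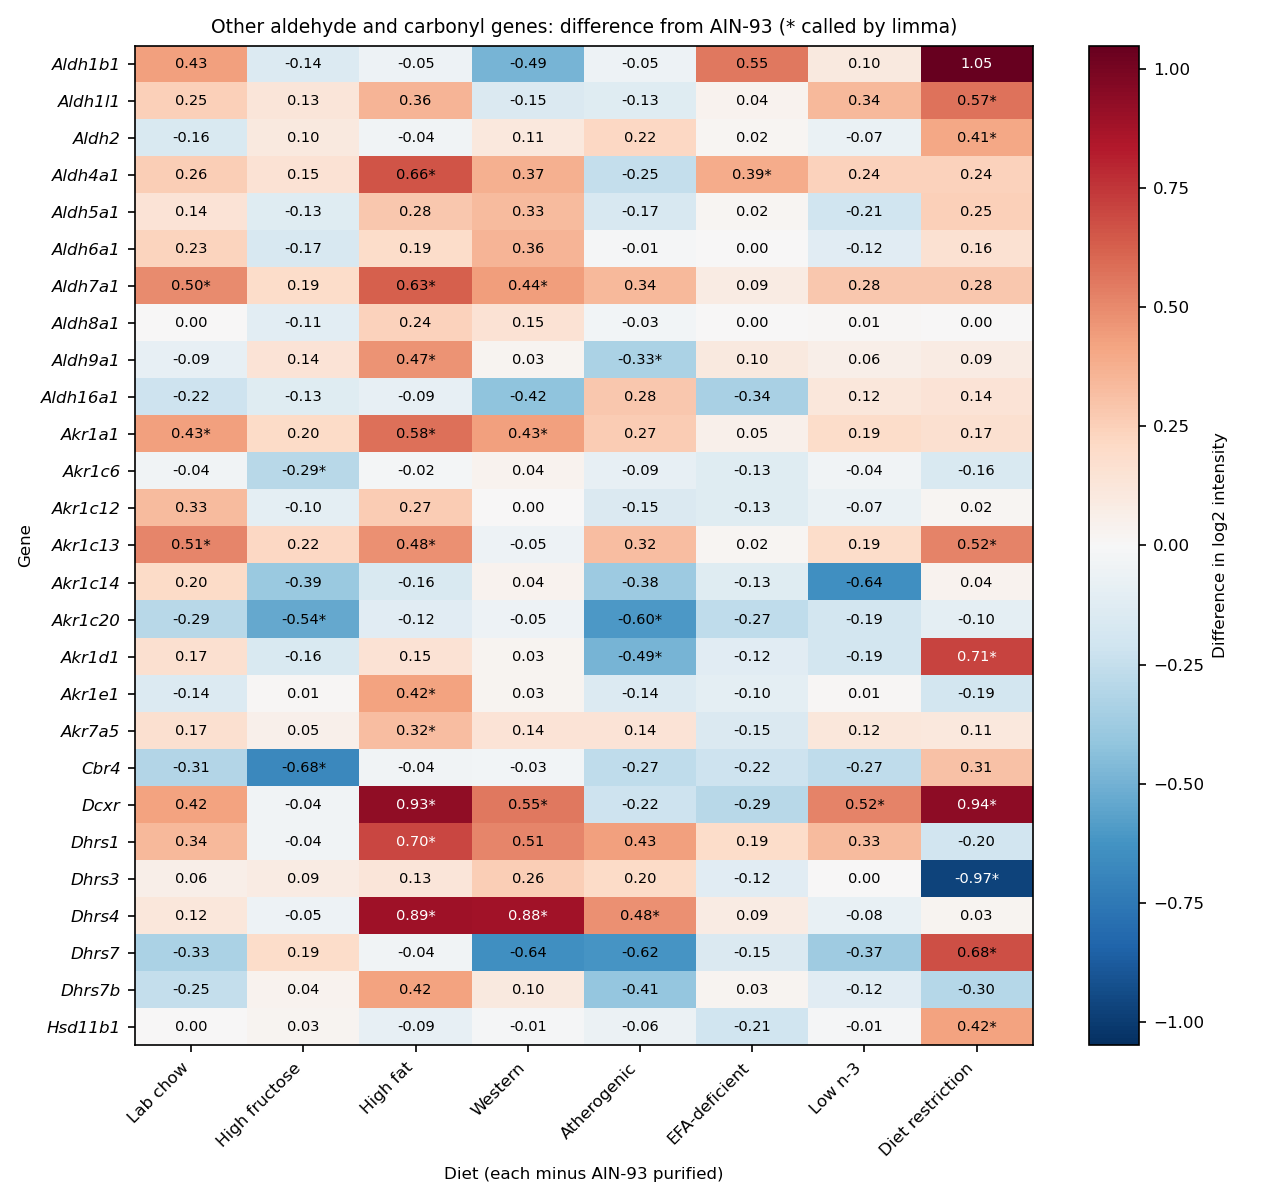
Difference in log2 intensity of 27 other aldehyde and carbonyl genes (rows) on each of 8 diets (columns) from AIN-93, with the value in each cell, colour on a scale centred at 0 and an asterisk where limma made a call. Of 34 asterisks, 27 are on positive differences, 10 of them in the high fat column. The AIN-93 arrays of Aldh4a1 were all below the detection level, so its cells give fitted values and not sizes of change.

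Lists of genes known as targets of the receptors named above, and the receptors themselves, were read on the same diets, with no test of a link to the 5 genes. Of 18 detected CAR and PXR targets, limma called 14 higher under diet restriction, 13 on lab chow, 8 each on high fat and atherogenic diets and 6 on Western, and 0 lower on these diets (1 lower at an unadjusted p under 0.05 on Western and 1 on atherogenic diets). Akr1c19 or Cbr1 was called on each of these diets except Western, and a link was not tested. Of 21 PPAR-alpha targets, 13 were higher on high fat, 12 on Western and 7 under diet restriction (2 lower), the diets on which Aldh3a2 was called, against 2 on lab chow and 1 on the atherogenic diet. Of 12 Nrf2 targets, the atherogenic diet had 7 higher and 1 lower, against 6 higher on lab chow, 4 on Western, 3 on high fat, and 3 higher and 1 lower under restriction. At an unadjusted p under 0.05, restriction had 5 of these higher and 4 lower. Beside these lists, limma called from 2.02% (lab chow) to 13.5% (diet restriction) of all genes higher on the 5 diets, and 16% lower under restriction. Nr1i3, which encodes CAR, averaged 9.80 ± 0.26 under diet restriction and 9.17 ± 0.09 on high fat, against 7.85 ± 0.25 on AIN-93 (SD, n = 3; limma adjusted p = 9.7e-07 and 0.00014). It was also higher on Western, at 8.77 ± 0.25 (limma adjusted p = 0.0047), where neither Akr1c19 nor Cbr1 was called. Nr1i3 was called lower than on AIN-93 on high fructose, at 7.08 ± 0.16, and on the EFA-deficient diet, at 7.08 ± 0.40. Neither Akr1c19 nor Cbr1 was called on these diets either. Nr1i2, which encodes PXR, was higher under diet restriction, at 7.96 ± 0.24, and on the atherogenic diet, at 7.45 ± 0.07 (limma adjusted p = 3.8e-05 and 0.0043). These are the 2 diets with the highest Cbr1. The Nr1i2 mean on AIN-93, 6.55 ± 0.31, was below the detection level of 6.64, and 5 of its 9 diet means were below it. On lab chow, where Cbr1 was also called, Nr1i2 averaged 6.52 ± 0.18 and was not called. On lab chow, where Akr1c19 was 370% of control, Nr1i3 averaged 8.18 ± 0.12 and was not called. Ppara averaged 10.43 ± 0.11 under diet restriction, 10.40 ± 0.14 on Western and 10.25 ± 0.10 on high fat, against 9.27 ± 0.22 on AIN-93 (limma adjusted p = 0.00018, 0.00024 and 0.001). Nfe2l2, which encodes Nrf2, was called on the atherogenic diet alone, at 9.85 ± 0.15 against 9.04 ± 0.35 on AIN-93 (limma adjusted p = 0.015).

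The genes most like each of the 5 were sought by Pearson's r over the 9 diet means among 6473 other detected genes, as a description, since all genes share these arrays. For Aldh3a2 they were Hadh (r = 0.974), Acad11 (0.942) and Hsd17b4 (0.938), each an enzyme of fatty acid oxidation. Those for Akr1c19 were Pir (0.971), Cyp2b10 (0.935), a drug-metabolising cytochrome P450, and Mgst3 (0.913), a microsomal glutathione transferase. Cyp2b10 passed the detection level under restriction alone, at 9.33 ± 0.62, and its other 8 diet means, 2.29 to 5.31, were below it, so that its r rests on 1 diet with a measured level. Cbr1 had Ilrun (0.986), Zfp385b (0.979) and Rasgrp2 (0.972), Aldh1a1 had Dcaf12 (0.934), Atg7 (0.93) and Sod2 (0.929), and Aldh1a7 had Nr5a2 (0.935), Nt5e (0.92) and Pdlim5 (0.854). Rasgrp2 likewise was above the detection level under restriction alone, with 8 of 9 diet means below it, as were 7 of 9 for Nt5e, 2 for Atg7 and 1 for Mgst3, so that these values of r rest in part on levels not above background. Diet means of Sod2, Dcaf12, Pdlim5, Nr5a2, Hadh and Ilrun varied little, with ranges of 0.32 to 0.58 beside 0.67 for the median detected gene. Among the 5 themselves, r was 0.77 for Akr1c19 with Cbr1, 0.62 for Aldh1a1 with Aldh1a7 and with Aldh3a2, and 0.59 for Aldh1a7 with Aldh3a2, and no other pair exceeded 0.42.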

How the data were processed

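Values were used as deposited, on the log2 scale, after the background correction and normalization that the authors made with GCRMA, with 1 array per mouse. All 27 arrays share a lowest value of 2.29, held by 34.9% to 38.0% of the 45101 probes of an array, and medians of kept probes lay between 8.22 and 8.38. The number of arrays limits the precision, and values near the lowest hide the spread between mice. The platform annotation gave 34958 probes 1 symbol, 932 several and 9211 none, and only the first kind was used. Probes with a diet mean above log2(100) anywhere were kept, and kept probes of a gene were averaged.

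All 27 arrays entered 1 limma fit (limma 3.58.1 in R 4.3.3), with p adjusted by Benjamini and Hochberg over 6478 genes and 8 diets together. Called means an adjusted p under 0.05. The 2 comparisons that leave out AIN-93 were each adjusted alone. The genes and lists were chosen with earlier results of these data known. Named are the 7 genes on every diet, up to 4 called genes of each list and diet by size of difference, and the 3 genes most like each of the 5 detected. Receptor genes on diets where they were not called, 1 Kupffer marker, and Aldh1b1 were named after their values were seen. Same-numbered arrays did not deviate together (24 pairs with control, r from -0.16 to 0.24, 6 over 0.1), so numbers were not taken as pairs. Alternatives were other filters, normalizations, priors and weights, smaller fits, p adjusted within a diet, Dunnett's test (multcomp 1.4.28), a replicate block and each array left out. Promoter windows came from RefSeq GRCm38.p6. Plots were drawn with Python 3.11.15 and matplotlib 3.10.9.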

Additional observations from a re-analysis of the deposited data

How the results depend on the processing

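The 11 calls of the listed genes against AIN-93 were 10 to 14 under the 12 other settings and 8 to 12 with 1 array left out, the 2 calls of diet restriction against lab chow were 2 to 3 and 2 to 2, and the 3 calls of atherogenic against Western were 2 to 3 with 1 array left out, 3 to 4 under 9 other settings and 1 with only the arrays of the compared diets. The 34 calls of the other aldehyde and carbonyl genes (27 higher) were 55 with array weights (39 higher), 17 with only the arrays of the compared diets (14 higher) and 23 to 40 with 1 array left out. No result changed direction while called. With the replicate block, in which the replicate number enters the fit, the counts were 11, 2, 3 and 34, and no call changed. Besides the losses given with the genes, Aldh3a2 was called on lab chow with array weights or without AIN-93 replicate 2 (0.97), and on the atherogenic diet with array weights (0.89) or without atherogenic replicate 2 (0.98), and Aldh1a1 was called lower on the atherogenic diet with array weights (-0.40). Without the filter on low signal Cbr3 was also tested. The cause of these shifts was not tested. Centring the arrays or normalizing them again moved the median of all genes by at most 0.06 on the log2 scale.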

Other observations

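Of 5 detected genes that clear carbonyl compounds through glutathione, Gsta4, the transferase that conjugates 4-hydroxynonenal, had the largest differences from AIN-93: 3.03 ± 0.27 (SE) under diet restriction, 2.76 ± 0.27 on the atherogenic diet, 2.32 ± 0.27 on lab chow and 1.12 ± 0.27 on high fat (limma adjusted p = 9.8e-08, 4e-07, 4.4e-06 and 0.0095, n = 3 mice per diet). The first 3 are the diets on which Cbr1 was called. Glo1, the glyoxalase that clears methylglyoxal, was lower under diet restriction than on AIN-93 (-1.06 ± 0.12, limma adjusted p = 4.6e-06) and than on lab chow (-1.09 ± 0.12, limma adjusted p = 6.8e-07). Among the 3 detected alcohol dehydrogenases, diet restriction had Adh4 lower (-0.60 ± 0.15, limma adjusted p = 0.015) and Adh5 and Adh1 higher by 0.28 and 0.24 (limma adjusted p = 0.031 and 0.044). No other diet was called for these 3 genes against AIN-93.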
